A study of Mus musculus with 16 samples.

Results

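Mouse genes with a Psm symbol encode the parts of the proteasome, and 48 of them were measured in livers taken after partial hepatectomy (PHx) or a sham operation. Members were all genes whose single annotated symbol begins with Psma to Psmg and a number, without pseudogenes and antisense genes, and they are 48 of the 30142 genes with 1 symbol on the array. They hold 7 alpha and 6 beta subunits of the 20S core, 3 immunoproteasome subunits, 17 subunits of the base and lid of the 19S cap, 3 chaperones of 19S assembly, 4 chaperones of 20S assembly and 4 activators or inhibitors. Also matched were Psma8 and Psmb11, subunits used in germ cells and in the thymus, and Psmc3ip and Psme3ip1, which carry the prefix but are no subunits. Psmb5 and Psme2 could not be named, because their probe sets carry several symbols.

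The proteasome is the protease that breaks down proteins tagged with ubiquitin. Its 20S core is a barrel of alpha and beta rings with the cutting sites on the beta subunits, and the 19S cap binds, unfolds and feeds the substrate. Interferons can replace the constitutive cutting subunits by Psmb8, Psmb9 and Psmb10, which form the immunoproteasome and cut peptides for display by MHC class I. NFE2L1 is known to switch on proteasome subunit genes through antioxidant response elements when proteasome activity falls.

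After PHx, surgery that takes out liver lobes, the remnant regrows. RNA of whole liver, extracted with Trizol, was measured on 16 Affymetrix arrays, 4 for each combination of operation and genotype, all 12 h after surgery. The groups were Ppara fl/fl after sham, Ppara fl/fl after PHx, PparaΔHep after sham and PparaΔHep after PHx. The fl/fl mice are called wild type in the labels. In PparaΔHep mice hepatocytes have, per the labels, a disrupted gene of PPARα, a receptor that switches on fat oxidation. The labels name neither the Cre line nor the age or sex of the mice, and other liver cells keep the gene. Nor do they state whether the arrays of a group are separate mice, so p-values reflect array-to-array spread, which may be partly technical. Arrays are numbered within a group in the order of the samples, and the numbers pair nothing.

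Values are log2 RMA values, which are background-corrected, normalized and summarised per probe set, and a change of -1 on this scale is a fall to 50% of the signal. Groups were compared with limma over all 30142 genes. A gene was called where the Benjamini-Hochberg adjusted p was below 0.05. Ppara itself read 6.45 to 7.02 in sham fl/fl arrays and 6.05 to 6.43 in sham PparaΔHep arrays, and 5.68 to 7.24 against 4.70 to 6.26 after PHx. These values were lower on average in PparaΔHep livers, but the groups overlapped after PHx, no genotype difference was called by limma (adjusted p = 0.68 and 0.33), and whether the probe set lies in the deleted part is not known. All 11 hepatocyte markers measured stood above the negative controls, and their summed signal of 20055 to 22747 overlapped between the groups. By limma 3 of the 11 markers fell after PHx in each genotype (27.3%), and none rose. Of genes with a mean of at least 4, a level that all 11 reach, 36.1% fell in fl/fl and 39.8% in PparaΔHep livers. Within a group the median SD over 4 arrays was 0.12 for members and 0.11 for all genes.

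Psmb8 and Psmb10 had the largest changes of all 48 members after PHx in both genotypes, and Psmb9, the other immunoproteasome gene, fell as well. The stretches before their start sites are shown because the 3 genes moved together and because 2 of them lie in 1 cluster with transporter genes of antigen presentation. Sequences are from RefSeq (build GRCm38.p6), each the 250 bases before the annotated start, 5′ to 3′ on the gene's strand. Psmb8 is at chr17:34197945-34198194 on the plus strand, Psmb9 at chr17:34187331-34187580 on the minus strand and Psmb10 at chr8:105938393-105938642 on the minus strand. Capitals mark the 1 match to a searched motif, CCAAT read on the opposite strand, whose first base stands 8 before the start of Psmb9.
Psmb8: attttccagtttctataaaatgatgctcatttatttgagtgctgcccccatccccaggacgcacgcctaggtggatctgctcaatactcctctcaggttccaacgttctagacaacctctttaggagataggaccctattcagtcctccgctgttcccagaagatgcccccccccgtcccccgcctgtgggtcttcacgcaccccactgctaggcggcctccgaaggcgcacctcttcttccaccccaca
Psmb9: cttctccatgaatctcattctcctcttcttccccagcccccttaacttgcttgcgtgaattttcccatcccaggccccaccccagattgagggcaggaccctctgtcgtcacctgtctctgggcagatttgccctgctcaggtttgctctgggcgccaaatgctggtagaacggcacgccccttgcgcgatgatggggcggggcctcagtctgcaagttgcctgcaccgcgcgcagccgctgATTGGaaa
Psmb10: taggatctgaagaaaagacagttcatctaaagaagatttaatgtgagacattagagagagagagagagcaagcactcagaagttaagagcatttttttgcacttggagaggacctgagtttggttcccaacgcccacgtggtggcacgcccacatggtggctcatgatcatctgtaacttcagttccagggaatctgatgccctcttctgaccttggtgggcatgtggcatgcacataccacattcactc
The start of Psmb9 is base 34187330 of chromosome 17 and that of Tap1, on the other strand, is base 34187556, so that the stretch printed for Psmb9 runs past the start of Tap1. Psmb8 starts 10865 bases from Psmb9 on the same chromosome.

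Psmb8, the interferon-inducible counterpart of Psmb5, read 4.25, 4.37, 4.55 and 4.32 in sham fl/fl arrays and 3.68, 3.64, 3.69 and 3.81 after PHx. In PparaΔHep livers it read 4.67, 4.33, 4.63 and 4.55 after sham and 3.80, 3.58, 3.50 and 3.66 after PHx. Every PHx array lay below every sham array. The log2 change was -0.67 (SE 0.08) in fl/fl and -0.91 (SE 0.08) in PparaΔHep livers, with limma adjusted p = 3.5e-05 and 1.1e-06, which left 63.0% and 53.4% of the sham signal.

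Psmb10, the counterpart of Psmb7, read 5.50, 5.74, 5.67 and 5.74 in sham fl/fl arrays and 4.74, 4.79, 5.03 and 4.90 after PHx. In PparaΔHep livers the values were 5.59, 5.34, 5.78 and 5.68 after sham and 5.01, 4.92, 4.72 and 4.91 after PHx. Again no PHx array reached the lowest sham array of its genotype. The change was -0.80 (SE 0.09, limma adjusted p = 1.7e-05) in fl/fl and -0.71 (SE 0.09, adjusted p = 4.9e-05) in PparaΔHep livers.

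Psmb9, the counterpart of Psmb6, was a dimmer gene, with means of 3.15 ± 0.09 and 3.18 ± 0.12 after sham and 2.79 ± 0.10 and 2.83 ± 0.12 after PHx in fl/fl and PparaΔHep livers (SD, n = 4). Its change was -0.36 (SE 0.08) and -0.35 (SE 0.08), called by limma in both (adjusted p = 0.0023 and 0.0029). The groups did not overlap in either genotype.

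**Figure D1:**
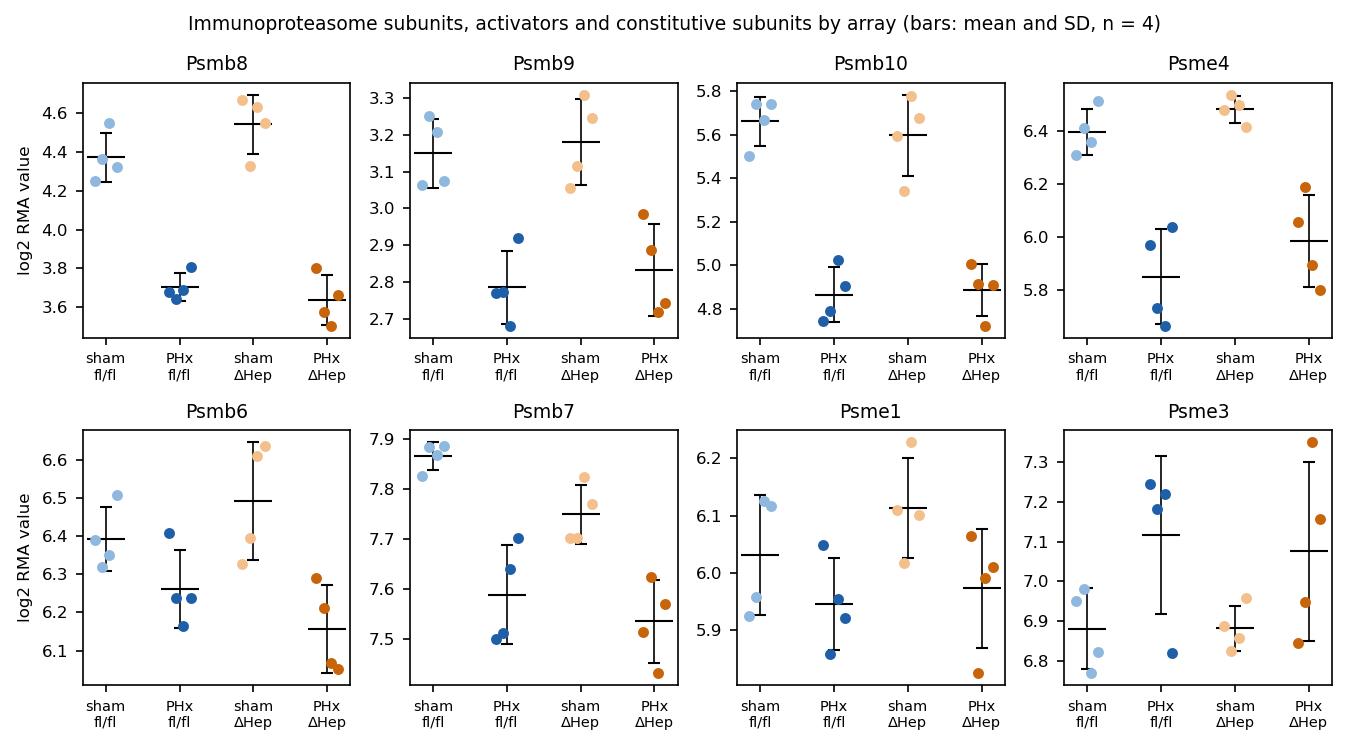
Log2 RMA value of 8 genes in each array (points), by operation and genotype, with mean and SD of 4 arrays as bars; axes differ between panels and do not start at 0. Psmb8, Psmb9, Psmb10, Psme4 and the constitutive Psmb7 lie lower in every PHx array than in every sham array of the same genotype. Psmb6 does so in PparaΔHep livers alone, and Psme1 and Psme3 overlap in both genotypes.

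The constitutive partners were measured on the same arrays, so that a shift equal for all genes of an array cancels in the difference of a pair. A shift that varies with the level of signal does not cancel, because the partners lie at different levels. Over the 16 arrays Psmb10 had a mean of 5.25 and Psmb7 of 7.69, and Psmb9 of 2.99 and Psmb6 of 6.33. Psmb7, a cutting subunit of the beta ring, fell by 0.28 and 0.21 on the log2 scale (limma adjusted p = 0.0017 and 0.0083), though in PparaΔHep livers its change turned to 0.05 under quantile normalization. Psmb10 minus Psmb7 went from -2.21 ± 0.08 to -2.72 ± 0.08 in fl/fl livers and from -2.15 ± 0.14 to -2.65 ± 0.10 in PparaΔHep livers (SD, n = 4). Psmb10 thus lost 0.52 and 0.50 more than Psmb7, with no overlap between the arrays of the groups. Each of these has p = 0.029 by the exact two-sided permutation test, the smallest that 4 against 4 arrays allow, and 0.11 after adjustment over the 8 tests of this kind.

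Psmb6 read 6.39 ± 0.08 after sham and 6.26 ± 0.10 after PHx in fl/fl livers, a difference that limma did not call (-0.13, adjusted p = 0.23; 0.05 under cyclic loess). In PparaΔHep livers it fell from 6.49 ± 0.15 to 6.16 ± 0.12 (SD, n = 4), a change of -0.34 (adjusted p = 0.0053). That call was lost under cyclic loess (-0.13, limma adjusted p = 0.21) and quantile normalization (-0.12, adjusted p = 0.23). Psmb9 minus Psmb6 changed by -0.23 in fl/fl and by -0.01 in PparaΔHep livers, with p = 0.086 and 0.71 by the exact permutation test (adjusted 0.17 and 0.71). That value depended on the scaling: under cyclic loess the change was -0.32 and -0.23 (adjusted p of the same exact test 0.057 and 0.057), and under quantile normalization, tried after the data were seen, -0.42 and -0.33 (adjusted p 0.057 and 0.057). The difference from Psmb8 to Psmb5 was not analysed here.

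Genes of interferon response and antigen presentation, a list chosen with earlier results of these data known, moved the same way. Of 13 measured, 11 fell in fl/fl and 12 in PparaΔHep livers, with a median of -0.37 and -0.50, and none rose. Under cyclic loess 8 and 9 fell, with a median of -0.31 and -0.33. Among all genes as deposited 20.8% fell in fl/fl and 17.5% in PparaΔHep livers, and under cyclic loess 10.8% and 12.3%. Of genes with a mean of at least 4, a level that 12 of the 13 reach, 36.1% and 39.8% fell as deposited. The largest falls were those of Stat2 (-0.91 and -1.02), Irf1 (-0.80 and -0.75), Irf9 (-0.76 and -0.89) and, in fl/fl livers, Erap1 (-0.66), which trims peptides for MHC class I. In PparaΔHep livers Erap1 changed by -0.57. Stat2, Irf1 and Irf9 are transcription factors of the interferon response. Tap1, a subunit of the peptide transporter that faces Psmb9 across the printed stretch, fell from 4.48 ± 0.13 to 4.02 ± 0.14 in fl/fl and from 4.55 ± 0.14 to 4.04 ± 0.15 in PparaΔHep livers (SD, n = 4), with limma adjusted p = 0.0020 and 0.0010.

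Some markers of immune and lining cells fell too. Beside them, 20.8% of all genes fell in fl/fl and 17.5% in PparaΔHep livers. For genes with a mean of at least 4 these shares were 36.1% and 39.8%. That level was reached by 8 of 10 Kupffer cell, 8 of 8 sinusoidal and 4 of 6 stellate cell markers. It was reached by 0 T and NK cell or B cell markers. The 40.0% of Kupffer cell markers that fell in fl/fl livers is near this background. Of 10 Kupffer cell and macrophage markers 4 fell in fl/fl and 7 in PparaΔHep livers, and their summed signal ran from 413 to 628 in sham fl/fl and from 340 to 459 in PHx fl/fl arrays (470 to 684 and 338 to 505 in PparaΔHep), on the unlogged RMA scale. Of 8 markers of sinusoidal endothelium 4 and 5 fell and 1 rose in each genotype, with sums of 389 to 422 and 303 to 447 in fl/fl and of 378 to 406 and 289 to 450 in PparaΔHep livers, which overlapped. Of 6 markers of stellate cells and fibroblasts 3 fell in each genotype. Their sums ran from 266 to 308 after sham and from 188 to 254 after PHx in fl/fl livers, and from 253 to 340 and 163 to 238 in PparaΔHep livers, the 1 list of other cell types whose sums did not overlap in either genotype. Lrat, an enzyme that stores vitamin A in stellate cells, had the largest fall of these 6, to 46.8% and 28.4% of the sham signal. The median log2 change of the 6 was -0.28 and -0.29, and 1 and 2 of them had a positive change. Of 10 T and NK cell markers 8, Cd3d, Cd3g, Cd8a and Cd4 among them, stood at or under the negative controls. By limma 4 of the 10 fell in fl/fl livers, and 0 fell (1 at unadjusted p below 0.05) and 1 rose in PparaΔHep livers, and sums were 40.0 to 44.4 and 37.3 to 39.1 in fl/fl and 38.1 to 40.5 and 37.8 to 41.4 in PparaΔHep livers. Of 5 B cell markers 3 fell in fl/fl livers and 0 in PparaΔHep livers (limma, also 0 at unadjusted p below 0.05, 4 with array medians subtracted), and sums were 24.6 to 27.0 and 21.2 to 23.7 in fl/fl and 23.2 to 25.3 and 21.7 to 24.6 in PparaΔHep livers. The lists of 6 neutrophil, 6 dendritic cell and 4 cholangiocyte markers had at most 1 gene called in each direction. Neutrophil sums were 43.6 to 72.4 and 37.2 to 134 in fl/fl livers, and 41.8 to 45.1 and 46.0 to 52.4 in PparaΔHep livers. In whole liver, fewer cells of a type and less RNA per cell cannot be told apart, and the part of these cells in the fall of the immunoproteasome genes was not tested.

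Over all members, 22 fell and 1 rose after PHx in fl/fl livers, and 29 fell and 1 rose in PparaΔHep livers. The background is that 20.8% of all genes fell and 11.9% rose in fl/fl, and 17.5% fell and 14.8% rose in PparaΔHep livers. Most members are well expressed, and among the 9294 genes with a mean of at least 4 the share that fell was 36.1% and 39.8%. Of the 42 members at that level, 20 fell in fl/fl and 28 in PparaΔHep livers by the same test. The median change of the 48 members was -0.23 and -0.24, against -0.04 and 0.01 for all genes and -0.16 and -0.19 for genes with a mean of at least 4. The groups did not overlap for 24 members that were lower in fl/fl (19.9% of all genes, 33.9% of those with a mean of at least 4) and for 22 in PparaΔHep livers (16.2% and 35.7%).

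**Figure D2:**
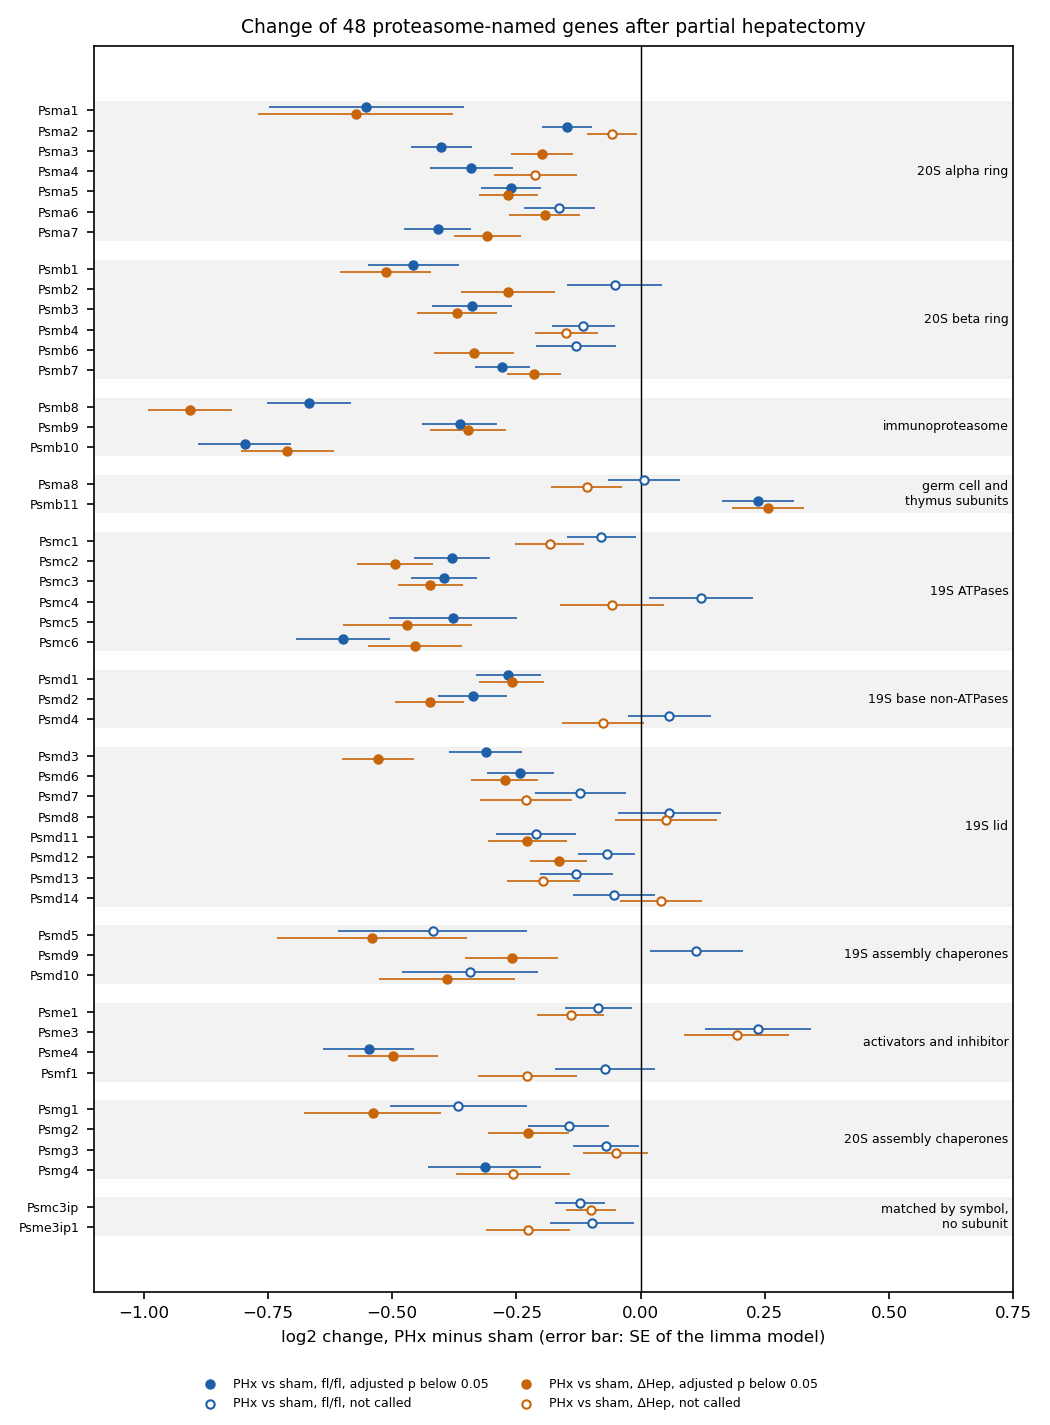
Log2 change from sham to PHx of all 48 genes by class, in fl/fl (blue) and PparaΔHep livers (orange), as deposited; bars are the standard error of the limma model, and filled points have an adjusted p below 0.05. Psmb8 and Psmb10 lie farthest to the left, and Psmb11, near background, is the 1 gene called higher, while the sign of 4 of the 8 lid genes (Psmd7, Psmd12, Psmd13 and Psmd14) and of several others turns in at least 1 genotype under cyclic loess or quantile normalization.

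The alpha ring forms the gate of the 20S core. All 7 genes had a negative change, and 6 were called in fl/fl and 5 in PparaΔHep livers. Among all genes with a mean of at least 4, a level that all 7 reach, 36.1% and 39.8% fell. Psma1 changed by -0.55 and -0.57, Psma7 by -0.41 and -0.31, Psma3 by -0.40 and -0.20, Psma4 by -0.34 (called) and -0.21 (not called), and Psma5 by -0.26 and -0.27. Psma2 was called in fl/fl alone (-0.15 against -0.06) and Psma6 in PparaΔHep alone (-0.19 against -0.16). The median of the ring was -0.34 and -0.21 as deposited, and in PparaΔHep livers it turned to 0.01 under quantile normalization, where Psma2, Psma3, Psma4 and Psma6 had positive changes.

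Psma1 read 6.16, 6.27, 6.14 and 6.27 in sham fl/fl arrays and 5.80, 5.71, 5.20 and 5.92 after PHx. The PparaΔHep arrays read 6.03, 5.94, 6.09 and 6.29 after sham and 5.72, 5.96, 5.57 and 4.82 after PHx. Array 3 of PHx fl/fl and array 4 of PHx PparaΔHep were the lowest, and the PparaΔHep groups overlapped. Without those arrays the change was -0.40 in fl/fl and -0.34 in PparaΔHep livers, and the limma adjusted p, 0.042 and 0.036 with all arrays, reached 0.13 and 0.099, the highest of its values with 1 array left out (lowest 0.0061 and 0.011).

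In the beta ring 3 of 6 genes fell in fl/fl and 5 of 6 in PparaΔHep livers. Psmb1, a structural subunit, fell from 7.73 ± 0.08 to 7.27 ± 0.16 in fl/fl and from 7.71 ± 0.05 to 7.20 ± 0.19 in PparaΔHep livers (SD, n = 4). Psmb3 changed by -0.34 and -0.37 and was called in both. Psmb2 was called in PparaΔHep livers alone (-0.27 against -0.05), as was Psmb6, and Psmb4 was called in neither (-0.12 and -0.15). The median of the ring was -0.20 in fl/fl and -0.30 in PparaΔHep livers.

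The 6 ATPases of the 19S base form the ring that unfolds substrates, and 4 of them, Psmc2, Psmc3, Psmc5 and Psmc6, fell in both genotypes. That is 66.7%, beside 36.1% and 39.8% of all genes with a mean of at least 4, a level that all 6 reach. Psmc6 read 7.36, 7.38, 7.41 and 7.56 in sham fl/fl arrays and 6.85, 6.81, 6.66 and 6.98 after PHx. PparaΔHep livers gave 7.31, 7.29, 7.21 and 7.45 after sham and 6.72, 7.06, 7.02 and 6.64 after PHx. All PHx arrays were below all sham arrays, with a change of -0.60 (SE 0.09, limma adjusted p = 0.00028) and -0.45 (SE 0.09, adjusted p = 0.0021). Psmc2 changed by -0.38 and -0.49, Psmc3 by -0.40 and -0.42, and Psmc5 by -0.38 and -0.47. Psmc1 (-0.08 and -0.18) and Psmc4 (0.12 and -0.06) were not called.

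Of the 3 other base genes, Psmd1 (-0.27 and -0.26) and Psmd2 (-0.34 and -0.42), the large scaffold subunits, fell in both genotypes. Psmd4, a receptor for ubiquitin, was called in neither (0.06 and -0.08). In the lid, which removes ubiquitin, 2 of 8 genes fell in fl/fl livers and 4 in PparaΔHep livers. The shares lie below and above the 36.1% and 39.8% that fell among all genes with a mean of at least 4, a level that all 8 reach. Psmd3 changed by -0.31 and -0.53 and Psmd6 by -0.24 and -0.27, and Psmd11 (-0.23) and Psmd12 (-0.16) were called in PparaΔHep livers alone. Psmd14, the deubiquitinase of the lid, was called in neither (-0.05 and 0.04), nor were Psmd7, Psmd8 and Psmd13. The median of the lid was -0.13 in fl/fl and -0.21 in PparaΔHep livers as deposited, but 0.05 in fl/fl under cyclic loess and 0.03 and 0.01 under quantile normalization.

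**Figure D3:**
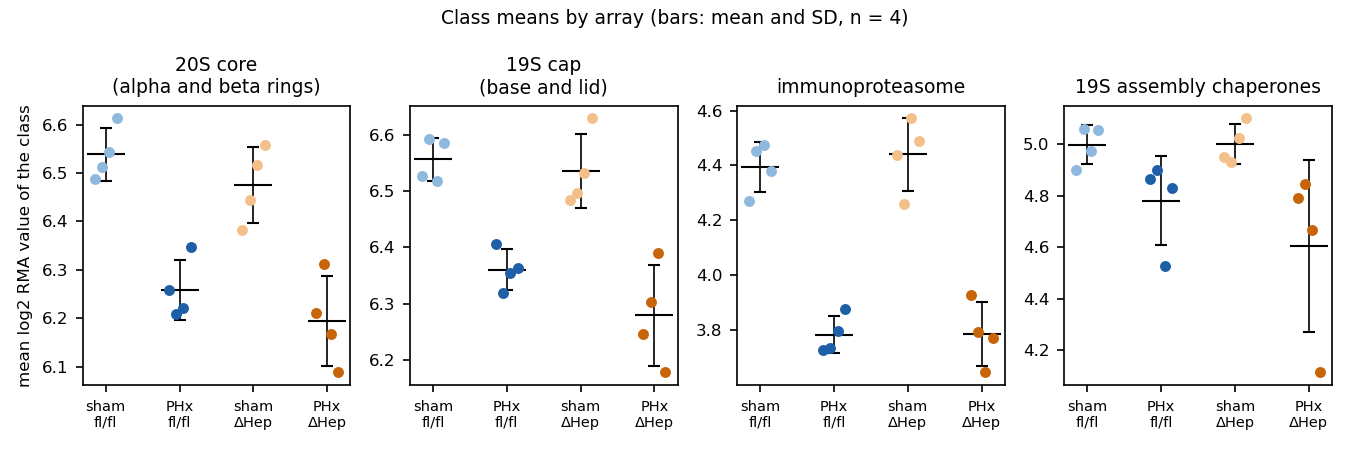
Mean log2 RMA value over the genes of 4 classes in each array (points), with mean and SD of 4 arrays as bars; axes differ between panels and do not start at 0. The 20S core, the 19S cap and the immunoproteasome lie lower in every PHx array than in every sham array of the same genotype as deposited, and for the 19S assembly chaperones array 3 of PHx fl/fl and array 4 of PHx PparaΔHep lie lowest.

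Chaperones of 19S assembly, Psmd5, Psmd9 and Psmd10, bind the ATPases before the cap is built. By limma 0 of the 3 were called in fl/fl livers as deposited and under the other scalings (2 at an unadjusted p below 0.05), and all 3 fell in PparaΔHep livers. Under cyclic loess and quantile normalization 0 were called there too. Among all genes with a mean of at least 4, a level that all 3 reach, 36.1% and 39.8% fell as deposited. Psmd5 read 5.94, 6.43, 6.28 and 6.24 in sham fl/fl arrays and 5.95, 5.93, 5.42 and 5.91 after PHx. Values in PparaΔHep livers were 6.19, 6.14, 6.29 and 6.37 after sham and 5.99, 5.99, 5.85 and 4.99 after PHx. The change was -0.42 (SE 0.19, adjusted p = 0.11) and -0.54 (SE 0.19, adjusted p = 0.042). Array 4 of PHx PparaΔHep stood far below the rest, and without it the change there was -0.30 (adjusted p = 0.10, the highest of 0.027 to 0.10 with 1 array left out). Psmd10 changed by -0.34 and -0.39, and Psmd9 by 0.11 and -0.26.

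Assembly of the 20S core is helped by Psmg1 to Psmg4. Psmg1 read 4.80, 5.09, 4.88 and 5.13 in sham fl/fl arrays and 4.71, 4.46, 4.52 and 4.75 after PHx. In PparaΔHep livers it read 5.04, 4.94, 5.05 and 5.13 after sham and 4.75, 4.86, 4.24 and 4.16 after PHx. The arrays did not overlap in either genotype, and the change was -0.37 (SE 0.14, limma adjusted p = 0.053, not called) and -0.54 (SE 0.14, adjusted p = 0.0078). Psmg2 was called in PparaΔHep livers alone (-0.23 against -0.14) and Psmg4 in fl/fl alone (-0.31 against -0.26), and Psmg3 in neither (-0.07 and -0.05).

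Psme4, known as PA200, is an activator that opens the core without ATP, and it fell in both genotypes. It read 6.31, 6.41, 6.36 and 6.51 in sham fl/fl arrays and 5.97, 5.73, 5.66 and 6.04 after PHx. The PparaΔHep arrays read 6.48, 6.54, 6.50 and 6.41 after sham and 6.06, 6.19, 5.89 and 5.80 after PHx. No PHx array reached a sham array, and the change was -0.55 (SE 0.09, limma adjusted p = 0.00044) and -0.50 (SE 0.09, adjusted p = 0.00082).

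The other regulators of the core were not called in either genotype. Psme1, a subunit of the interferon-inducible PA28 activator, changed by -0.09 and -0.14. Psme3, the nuclear PA28 gamma, read 6.88 ± 0.10 and 6.88 ± 0.06 after sham and 7.12 ± 0.20 and 7.08 ± 0.22 after PHx (SD, n = 4), a difference of 0.24 and 0.19 (limma adjusted p = 0.10 and 0.18). Psmf1, the inhibitor PI31, changed by -0.07 and -0.23.

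Psmb11 was the 1 member called higher as deposited, by 0.24 (SE 0.07, limma adjusted p = 0.021) and 0.26 (SE 0.07, adjusted p = 0.014). It read 1.65, 1.54, 1.57 and 1.56 in sham fl/fl arrays and 1.75, 1.92, 1.95 and 1.63 after PHx. PparaΔHep livers gave 1.48, 1.53, 1.48 and 1.43 after sham and 1.69, 1.72, 1.91 and 1.63 after PHx. All of these lie at or under the array medians of the negative controls, which were 1.94 ± 0.06 after sham and 2.02 ± 0.07 after PHx (SD, n = 8), which is background signal. Psma8 stood at the same level and was not called.

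How far the members fell depended on how the arrays were scaled. Control probe sets differed between the operations too: the array medians of the positive controls were 5.95 ± 0.09 after sham and 5.59 ± 0.12 after PHx, and those of the spike-in controls 1.80 ± 0.05 and 1.60 ± 0.07 (SD, n = 8). A shift of the arrays and the operation cannot be told apart from these. Cyclic loess, which brings the arrays together along the range of signal, gave 10 lower members in fl/fl and 11 in PparaΔHep livers, of which 10 and 10 were also lower as deposited. Of all genes, 10.8% and 12.3% fell under cyclic loess. Quantile normalization gave 12 and 14 of the 48, of which 11 and 10 were also lower as deposited, beside 22.1% and 20.5% of all genes. Psmc3ip, not called as deposited, was added in PparaΔHep livers by both and in fl/fl livers by quantile normalization, which in PparaΔHep livers also added Psma8, Psmg3 and Psmg4. Subtracting array medians gave 25 and 42, among them all 22 and 29 of the deposited values, beside 26% and 38.1% of all genes. The median of all genes moved from 0.01 to -0.12 in PparaΔHep livers under that last scaling and from -0.04 to -0.07 in fl/fl livers. Of all genes called, 36.5% were higher in fl/fl and 45.8% in PparaΔHep livers as deposited, against 56.7% and 53.7% under cyclic loess, 34.3% and 36.1% under quantile normalization and 28.0% and 16.5% with array medians subtracted.

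Under all 4 scalings 7 members fell in both genotypes: Psmb8, Psmb9, Psmb10, Psmb1, Psmc2, Psmc3 and Psme4. In fl/fl livers Psma3, Psma7 and Psmc6 were added to these, and in PparaΔHep livers Psmd2 and Psmd3. The immunoproteasome kept a median of -0.53 and -0.52 under cyclic loess, against -0.67 and -0.71 as deposited. The median of the 20S core went from -0.28 and -0.27 to -0.10 and -0.06 under cyclic loess, and that of the 19S cap from -0.21 and -0.23 to -0.03 and -0.03. Calls in the other direction appeared as well. Psma2, lower in fl/fl livers as deposited, was called higher in PparaΔHep livers under cyclic loess (0.15, limma adjusted p = 0.022) and quantile normalization (0.16, adjusted p = 0.0088). Under quantile normalization Psmc4 was called higher in fl/fl (0.33, adjusted p = 0.029) and Psmd8 in PparaΔHep livers (0.30, adjusted p = 0.046). Psme3 was called higher under cyclic loess (0.42 and 0.40) and quantile normalization (0.45 and 0.44) in both genotypes, and not with array medians subtracted (0.21 and 0.06).

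Some calls lay close to the threshold. When each array was left out in turn, 18 of the 22 lower calls in fl/fl and 19 of the 29 in PparaΔHep livers passed in every one of the 16 fits. The others were lost in 4 to 13 of the 16 fits, for some of them also without an array of a group that was not compared, so that no lost call turned on 1 array alone. In fl/fl livers Psma1 was lost in 11 fits, Psmg4 in 10, Psma2 in 6 and Psmc5 in 5, and the higher call of Psmb11 in 3. The highest limma adjusted p of these was 0.14 for Psmg4 and 0.068 for Psmb11 (both without array 2 of PHx fl/fl), 0.097 for Psma2 (without array 4 of sham fl/fl) and 0.11 for Psmc5 (without array 3 of PHx fl/fl). In PparaΔHep livers Psmd9 was lost in 13 fits, Psma6 in 12, Psmg2 in 10, Psmd5 in 8, Psmb2 and Psmd11 in 7, Psmd10 in 6, Psma1 and Psmd12 in 5 and Psma3 in 4. The highest adjusted p was 0.16 for Psmd9, 0.15 for Psmg2 and 0.13 for Psmd12 (all without array 4 of PHx PparaΔHep), 0.16 for Psma6 and 0.11 for Psmd10 (both without array 4 of sham PparaΔHep), 0.13 for Psmb2 (without array 2 of PHx PparaΔHep), and 0.12 for Psmd11 and 0.064 for Psma3 (both without array 1 of PHx PparaΔHep). The highest values of Psma1 and Psmd5 are given above.

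**Figure D4:**
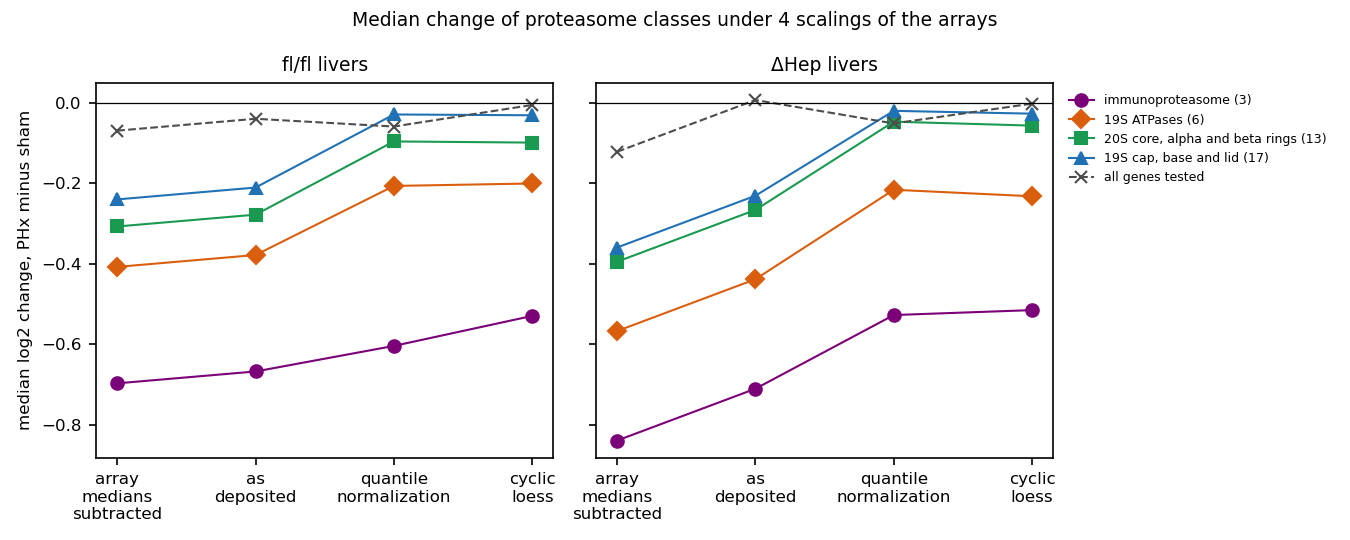
Median log2 change from sham to PHx of 4 classes and of all genes (y axis) under 4 scalings of the arrays (x axis), in fl/fl (left) and PparaΔHep livers (right). The immunoproteasome stays at or below -0.515 under each scaling. The 20S core and the 19S cap as a whole come close to the median of all genes under cyclic loess and quantile normalization. Within the cap the ATPases are mixed. Under cyclic loess Psmc2, Psmc3 and Psmc6 stay called lower in both genotypes, Psmc5 is not called, and Psmc1 and Psmc4 have positive changes.

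No member passed the threshold in a comparison of the genotypes. In PparaΔHep against fl/fl livers, 0 of 48 members were called after sham and 0 after PHx by limma, where 0.0133% and 0.143% of all genes were called, and 0 members were called under the other 3 scalings as well. At an unadjusted p below 0.05 there were 0 members after sham and 3 after PHx, all lower: Psmd9 (-0.31), Psmd3 (-0.17) and Psmc1 (-0.15). The difference between the PHx changes of the genotypes was called for 0 members and for 0% of all genes, with 2 members at an unadjusted p below 0.05. These were Psmd9 (-0.37, limma adjusted p = 0.36) and Psma3 (0.20, adjusted p = 0.41). For Psmb8 that difference was -0.24, with a 95% interval from -0.49 to 0.02, and for Psmb10 it was 0.09, with an interval from -0.20 to 0.37. The 95% intervals of the members reached a median of 0.17 to either side for the genotype differences and 0.24 for the difference of the PHx changes. The 10 members called in PparaΔHep alone and the 3 called in fl/fl alone are therefore not shown to differ between the genotypes.

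Genes that help build, feed or switch on the proteasome were followed in lists. Of 10 other proteasome genes, all with a mean of at least 4, 3 fell in fl/fl and 4 in PparaΔHep livers. Among all genes at that level 36.1% and 39.8% fell, so these shares are near the background. Pomp, which matures the core, changed by -0.34 and -0.40, Uchl5, a deubiquitinase on the cap, by -0.40 and -0.44, and Ecpas, a proteasome scaffold, by -0.27 and -0.42. Sem1, a small lid subunit, changed by -0.23 (not called) and -0.32 (called). The median of this list was -0.06 and -0.10 as deposited, and it turned to 0.11 and 0.06 under cyclic loess.

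Of 10 genes of ubiquitin delivery and the p97 unfoldase, 5 and 6 fell and none rose as deposited, and 3 and 6 fell under cyclic loess. All 10 have a mean of at least 4, the level at which 36.1% and 39.8% of genes fell. Ubqln1 (-0.47 and -0.68), Ubqln2 (-0.56 and -0.67), Ubqln4 (-0.29 and -0.46) and Rad23b (-0.29 and -0.36) are shuttle factors that carry ubiquitinated proteins, and Vcp (-0.35 and -0.36) encodes p97. Of 11 transcriptional regulators of proteasome genes, 3 fell and 1 rose in fl/fl livers and 4 fell in PparaΔHep livers. The shares that fell, 27.3% and 36.4%, are below those of all genes with a mean of at least 4, a level that 10 of the 11 reach. Nfe2l1 changed by -0.13 (limma adjusted p = 0.34) and -0.32 (adjusted p = 0.019). Ngly1, an enzyme that NFE2L1 needs to become active, fell by 0.50 and 0.66, and Keap1, the repressor of NRF2, by 0.38 and 0.55. Nfe2l2, which encodes NRF2, changed by 0.22 and 0.01 and was not called. Nfyb, a subunit of the factor that binds CCAAT, changed by -0.62 and -0.52, and Nfya, another of its subunits, by 0.26 (called) and 0.13 (not called).

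Promoters of 300 bases, from 250 before to 50 after the start, were listed for 40 members (43 promoters) and searched on both strands. TGACNNNGC, the core of the antioxidant response element, was in 11.6% of them and in 12.4% of all 32851 promoters. CCAAT was in 37.2% against 37.4%, and GAAA followed after any 2 bases by GAAA, an interferon response core, in 11.6% (Psmb3, Psmd4, Psmd9, Psme1 and Psmg4) against 3.44%. None of the 3 immunoproteasome stretches holds the first or the last of these motifs. The stretches of 30 bases around the TGACNNNGC matches are shown because this element is the known site of NFE2L1, with the match in capitals on the gene's strand.
Psmb6, chr11:70525337-70525366, plus strand: actaaagagagTGACGGAGCgctttacgac
Psmc6, chr14:45329586-45329615, plus strand: gccagccagtaGCTAAGTCAggcattgctc
Psmd12, chr11:107479278-107479307, plus strand: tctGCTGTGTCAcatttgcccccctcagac
Psmd9, chr5:123228148-123228177, plus strand: tatctagccggTGACCCCGCccacttccaa
Psme4, chr11:30771757-30771786, plus strand: gcgctgcggctGCAGCGTCAccagaagagc
In Psmc6, Psmd12 and Psme4 the match is on the opposite strand. Of these 5 genes, Psmc6 and Psme4 fell in both genotypes, and Psmb6, Psmd12 and Psmd9 were called in PparaΔHep livers alone. Over all 48 members 22 fell in fl/fl and 29 in PparaΔHep livers. With 1 array left out the call of Psmd9 was lost in 13 of 16 fits and that of Psmd12 in 5. In PparaΔHep livers under cyclic loess Psmd12 turned to 0.04, and Psmb6 (-0.13) and Psmd9 (-0.12) were not called. Whether the motif bears on the changes was not tested.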

How the data were processed

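Liver RNA of 16 mouse samples was measured on Affymetrix arrays, 4 arrays per group. Per the submitters' processing notes the deposited log2 values per probe set come from RMA. Which software, version and genome build were used is not given in the sources used here. Array medians still differed between the operations, so other scalings were tried. The number of arrays limits the precision, and low values lie near background, where changes are understated.

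Of 72688 probe sets, 30604 have 1 symbol in the platform annotation, 2146 several and 39938 none listed. Symbols were updated through Entrez identifiers (827 changed), and the probe set with the highest mean stood for a gene (355 genes had several, no member did), which left 30142 genes. Members with pseudogenes, such as Psmb6 and Psmb7, may share probe sequence and are uncertain in that respect.

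limma 3.58.1 in R 4.3.3 (data.table version 1.17.8) fitted 1 mean per group to the deposited values of all 16 arrays, with eBayes defaults. Adjusted p is over the 30142 genes, with a threshold of 0.05. Contrasts were PHx minus sham for both genotypes, PparaΔHep minus fl/fl for both operations, and the genotype difference of the PHx change. Pairs of subunits were compared within arrays by the exact two-sided permutation test. Lists and marker sums are given without a test. The script was tested on simulated data.

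Alternatives were array medians subtracted, cyclic loess, quantile normalization, a mean of at least 4, protein-coding genes, the mean of all probe sets, eBayes with trend and robust, arrayWeights, the compared groups alone, and each array left out. Members and lists were chosen with earlier results of these data known.

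Named genes were the called members of a class with up to 6 calls, otherwise the 4 with the largest change, and a fixed set (Psmb6 to Psmb10, Psme1, Psme3, Psme4, Psmf1, Psmg1 to Psmg4). Values per array are given for the 5 called members with the largest change in each direction and comparison. Others were named after their values were seen. Of other lists, up to 4 called genes with the largest change were named, with Nfe2l1, Nfe2l2, Sem1, Pomp, Tap1 and Irf1.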

Additional observations from a re-analysis of the deposited data

Results flagged for a closer look

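In 192 sets of 4 values (48 genes in 4 groups of arrays), 15 single values stood apart from the other 3 of their set by more than Dixon's criterion allows. That is 7.81% of the sets, where chance flags about 1 in 20. Of these, 7 were in PHx PparaΔHep, 3 in PHx fl/fl, 3 in sham PparaΔHep and 2 in sham fl/fl.

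In PHx PparaΔHep, array 4 was low for Psmd5 (4.99 against 5.85 to 5.99) and Psme3ip1 (4.95 against 5.12 to 5.14). Array 2 was low for Psmb2 (4.61 against 4.96 to 4.97) and Psmf1 (3.61 against 4.01 to 4.04), and high for Psma3 (6.88 against 6.61 to 6.66). Array 1 was low for Psmc1 (6.36 against 6.63 to 6.66), and array 3 was high for Psmd3 (5.45 against 5.10 to 5.16).

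In PHx fl/fl, array 3 was low for Psmd5 (5.42 against 5.91 to 5.95) and high for Psmd3 (5.56 against 5.32 to 5.34), and array 4 was low for Psme3 (6.82 against 7.18 to 7.24). In sham PparaΔHep, array 4 was high for Psmd10 (4.57 against 4.33 to 4.35) and Psmd14 (5.14 against 4.83 to 4.86), and array 1 was low for Psmb1 (7.64 against 7.73 to 7.75). In sham fl/fl, array 2 was high for Psmd7 (7.28 against 7.08 to 7.08) and low for Psmd8 (7.13 against 7.32 to 7.34).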

How the results depend on the processing

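Calls of the members changed with the scaling. In fl/fl livers 10 members were lower under cyclic loess and 12 under quantile normalization, 2 were higher under each, and the median was -0.059 and -0.0808. Of all genes 10.8% and 22.1% were lower there. In PparaΔHep livers 11 and 14 members were lower, beside 12.3% and 20.5% of all genes, 2 and 3 were higher, and the median was -0.0903 and -0.093. With array medians subtracted 0 members were higher there and the median was -0.37. Among genes with a mean of at least 4, 0 members were higher in either genotype, and 4015 and 4380 genes were called; 6572 protein-coding genes were called in fl/fl. PparaΔHep against fl/fl after sham called 2 genes with array medians subtracted, 2 among genes with a mean of at least 4, 24 with arrayWeights and 38 with the compared groups alone, which called 0 after PHx. The median of the genotype difference was -0.14 with array medians subtracted. Psmb9 minus Psmb6 between genotypes after sham turned to 0.0088 under cyclic loess. Psmb10 minus Psmb7 between genotypes after sham turned to -0.0035 under quantile normalization, a setting for the pairs that was chosen after seeing the data.

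Under cyclic loess the PHx change in fl/fl livers turned for Psma2 (0.0308), Psma6 (0.016), Psmb2 (0.106), Psmb4 (0.057), Psmb6 (0.0475), Psmc1 (0.101), Psmd12 (0.112), Psmd13 (0.0326), Psmd14 (0.105), Psmd7 (0.059), Psme1 (0.0894), Psme3ip1 (0.0632), Psmf1 (0.0671), Psmg2 (0.0248). Under cyclic loess the PHx change in PparaΔHep livers turned for Psma2 (0.151), Psma3 (0.0082), Psma6 (0.0144), Psmb4 (0.0586), Psmc1 (0.0244), Psmc4 (0.149), Psmd12 (0.0368), Psmd4 (0.133), Psme1 (0.0685). Under quantile normalization the PHx change in fl/fl livers turned for Psma2 (0.0358), Psma6 (0.0265), Psma8 (-0.0574), Psmb2 (0.0679), Psmb4 (0.0353), Psmb6 (0.04), Psmc1 (0.112), Psmd12 (0.142), Psmd14 (0.0714), Psmd7 (0.0923), Psme1 (0.0732), Psme3ip1 (0.0206), Psmf1 (0.0049). Under quantile normalization the PHx change in PparaΔHep livers turned for Psma2 (0.162), Psma3 (0.0384), Psma4 (0.0119), Psma6 (0.0225), Psmb4 (0.0541), Psmb7 (0.0509), Psmc1 (0.0356), Psmc4 (0.171), Psmd12 (0.0713), Psmd4 (0.129), Psmd7 (0.0178), Psme1 (0.0727). With array medians subtracted the PHx change in fl/fl livers turned for Psma8 (-0.0229). With array medians subtracted the PHx change in PparaΔHep livers turned for Psmd14 (-0.0881), Psmd8 (-0.0778). These are 51 values of 21 members, and the cause was not tested.

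With 1 array left out, members lower were 18 to 25 in fl/fl and 20 to 32 in PparaΔHep livers, and members higher in fl/fl 0 to 2. Genes called were 1 to 6 for the genotypes after sham, 14 to 127 after PHx and 0 to 2 for the difference of the PHx changes. Signs turned for Psma8 (-0.0373 to 0.0392) and Psmd8 (-0.0009 to 0.0948) in fl/fl, and for Psmc4 (-0.112 to 0.0393), Psmd14 (-0.0176 to 0.115), Psmd4 (-0.14 to 0.0083), Psmd8 (-0.0393 to 0.135) and Psmb9 minus Psmb6 (-0.0383 to 0.002) in PparaΔHep livers. No paired analysis was possible because the array numbers were given in the order of the samples and pair nothing. Depth does not apply to arrays: Psma8 and Psmb11 stood at the negative controls, and changes of dim members are understated.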
